A study of Canis lupus with 20 samples.

Results

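Cardiac muscle myosin carries an essential and a regulatory light chain on the neck of each heavy chain, and the atrium and the ventricle use different genes for them. MYL2 and MYL3 encode the ventricular regulatory and essential light chains. MYL7 and MYL4 encode their atrial counterparts. Essential light chains stiffen the lever arm of the motor and touch actin, and regulatory light chains tune force through phosphorylation by cardiac myosin light chain kinase. The switch between the pairs is a standard marker of chamber identity, and MYL4 is also known as a fetal light chain that the human ventricle can re-express under load.

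The 4 genes were taken as the probe sets of a canine Affymetrix array that the annotation pairs with 1 of these symbols and no other. They had 6 probe sets, 1 for MYL2, 2 for MYL3, 2 for MYL4 and 1 for MYL7, of 29254 probe sets with a single symbol that cover 15115 genes. Of a gene with 2 probe sets the brighter over all arrays is given unless stated. The study measured left atrium and left ventricle of normal dogs 12 weeks after right-sided uninephrectomy, the surgical loss of 1 kidney, or a sham procedure. It holds 4 groups of 5 arrays, which are uninephrectomized atrium, sham atrium, uninephrectomized ventricle and sham ventricle. The design assigned 6 dogs to each operation and put 5 samples per chamber on arrays, with 1 array per sample. The labels number the arrays from 1 to 5 and give no age, and they do not state in words that the 5 samples of a group came from 5 dogs, so p-values measure the spread between these samples.

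All signals are log2 values as deposited, and differences are on that scale too, given ± standard error for 5 arrays in each group unless an SD is named. Tests are limma fits over all 20 arrays and 30047 probe sets, two-sided, and “called” means an adjusted p below 0.05 after Benjamini-Hochberg correction over all of them. The chamber labels were checked with genes other than the light chains. The atrial nuclear receptor gene NR2F1 had signals of 8.75 to 9.63 in the 10 atrial arrays and 1.91 to 2.67 in the 10 ventricular arrays. The ventricular homeobox gene IRX5 had 0.62 to 1.29 in the atrial arrays and 4.99 to 7.36 in the ventricular arrays. No array overlapped the other chamber in either gene. Of 5 tested ventricular markers, IRX5 among them, 3 were called lower and 1 higher in the atrium in each operation. Of 8 tested atrial markers, NR2F1 among them, 5 were called higher and 0 lower in each operation. Over all tested probe sets 14.7% were called higher and 12.5% lower in uninephrectomized dogs, and 11.2% and 9.62% in sham dogs. In bulk tissue fewer cells of a type and less RNA per cell cannot be told apart.

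MYL2 was far lower in the atrium than in the ventricle, where it was at the top of the scale. Atrial signals ran from 2.70 to 7.40, against array medians of 2.33 to 2.39 and upper quartiles of 5.10 to 5.53 over all probe sets. Its signals in uninephrectomized atria were 4.45, 4.71, 3.37, 7.40 and 3.69 in arrays 1 to 5, and in sham atria 3.81, 3.58, 2.70, 5.53 and 3.45. In uninephrectomized ventricles they were 14.69, 14.49, 14.49, 14.58 and 14.50, and in sham ventricles 14.57, 14.27, 15.02, 14.62 and 14.82. Array 4 was the highest in both atrial groups, and the atrial and ventricular arrays did not overlap. In uninephrectomized dogs the atrium averaged 4.72 ± 1.59 and the ventricle 14.55 ± 0.09 (SD), a difference of -9.83 ± 0.57 or 909-fold (adjusted p = 4.40e-10). In sham dogs the atrium averaged 3.81 ± 1.05 and the ventricle 14.66 ± 0.28 (SD), a difference of -10.85 ± 0.57 or 1845-fold, with a 95% confidence interval of 810-fold to 4203-fold (adjusted p = 9.94e-11). Of the 30047 probe sets tested, MYL2 ranked 1 by the size of a negative difference in both operations. The value of 15.02 in sham ventricle 3 is also the highest in the whole table, and the size of the fold depends on the low end of the scale, whose background correction was not given.

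MYL3 had the same direction with less contrast. Uninephrectomized atria gave 7.90, 8.85, 6.40, 6.82 and 5.76, and sham atria 6.89, 5.46, 8.81, 3.03 and 5.95. Uninephrectomized ventricles gave 14.12, 14.03, 13.94, 14.20 and 13.84, and sham ventricles 13.99, 13.90, 13.90, 13.68 and 14.21. The ventricular arrays lay within a narrow band, the sham atria were spread from 3.03 to 8.81, and no atrial array reached a ventricular one. The difference was -6.88 ± 0.72 in uninephrectomized dogs (118-fold, adjusted p = 1.24e-06). In sham dogs it was -7.91 ± 0.72 (241-fold, 95% confidence interval 84.4-fold to 685-fold, adjusted p = 2.73e-07). The second MYL3 probe set gave -6.98 ± 0.62 in uninephrectomized and -7.66 ± 0.62 in sham dogs, and across the 20 arrays the 2 sets differed by at most 0.74.

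MYL4 was uniform in the atrium and scattered in the ventricle. Uninephrectomized atria gave 14.20, 14.22, 14.18, 14.29 and 14.28, and sham atria 14.32, 14.48, 14.36, 14.33 and 14.17. Uninephrectomized ventricles gave 9.97, 3.66, 10.30, 5.53 and 7.30, and sham ventricles 9.91, 4.69, 9.60, 10.09 and 7.98. Ventricular arrays 1 and 3 of both operations and sham ventricle 4 lay between 9.60 and 10.30, array 2 of each operation lay under 5, and all lay below every atrial array. The difference was 6.88 ± 1.07 in uninephrectomized dogs (118-fold, adjusted p = 9.78e-05). In sham dogs it was 5.88 ± 1.07 (58.9-fold, 95% confidence interval 12.4-fold to 278-fold, adjusted p = 0.000599). The second MYL4 probe set gave 7.24 ± 1.13 and 6.03 ± 1.13 for uninephrectomized and sham dogs, and it followed the first to within 0.69 in all 20 arrays, so the scatter among ventricles was seen by both.

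MYL7 stayed well above the low end of the scale in the ventricle. Uninephrectomized atria gave 14.27, 14.23, 14.17, 14.33 and 14.20, and sham atria 14.20, 14.48, 14.32, 14.32 and 14.33. Uninephrectomized ventricles gave 11.70, 11.55, 11.78, 11.99 and 12.01, and sham ventricles 11.79, 12.73, 12.16, 12.59 and 12.28. The chambers did not overlap, and the ventricular arrays stayed between 11.55 and 12.73, unlike those of MYL4. The difference was 2.44 ± 0.13 in uninephrectomized dogs (5.41-fold, adjusted p = 2.06e-10). In sham dogs it was 2.02 ± 0.13 (4.05-fold, 95% confidence interval 3.34-fold to 4.91-fold, adjusted p = 2.94e-09). The atrial regulatory light chain gene thus had the smallest chamber difference of the 4 genes and the smallest standard error.

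**Figure D1:**
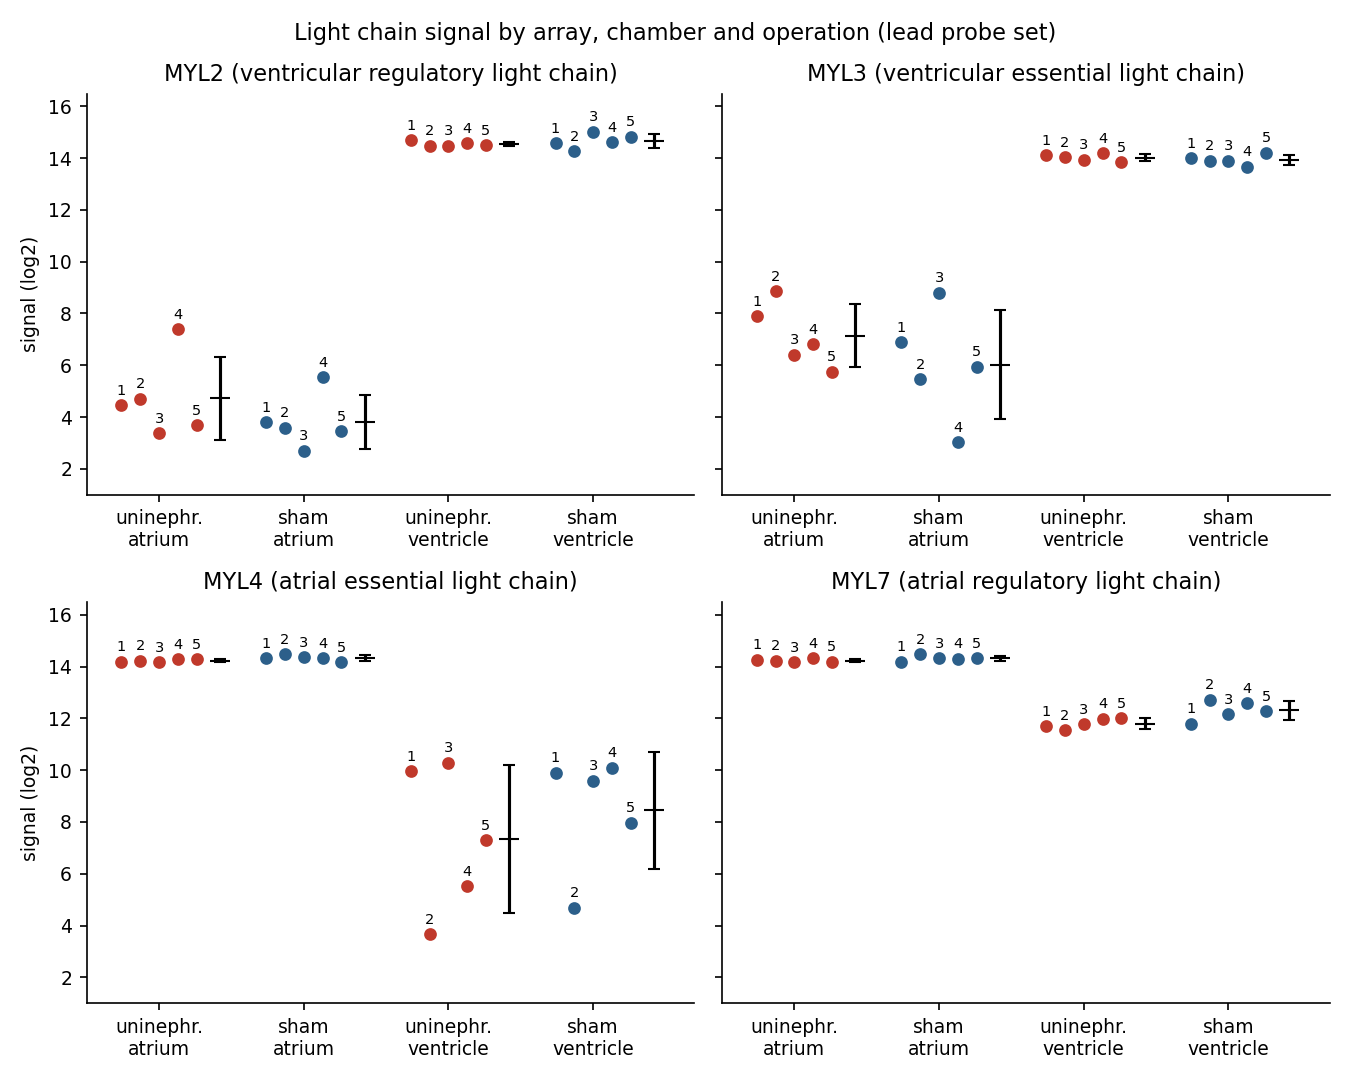
Signal (log2) of MYL2, MYL3, MYL4 and MYL7 in each array, numbered 1 to 5 within uninephrectomized atrium, sham atrium, uninephrectomized ventricle and sham ventricle, with the mean and SD of each group as a black bar. The ventricular genes are tight in the ventricle and scattered in the atrium, MYL4 is tight in the atrium and scattered from 3.66 to 10.30 in the ventricle, and MYL7 spans 11.55 to 12.73 in the ventricle.

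All 6 probe sets were called in both operations, the 3 of MYL4 and MYL7 as higher and the 3 of MYL2 and MYL3 as lower in the atrium. Over all tested probe sets the background was 14.7% called higher and 12.5% called lower in uninephrectomized dogs, and 11.2% called higher and 9.62% called lower in sham dogs. The 6 sets also had groups that did not overlap. Among all tested probe sets that held for 11.4% with the atrium higher and 9.57% with it lower in uninephrectomized dogs, and for 7.59% higher and 6.67% lower in sham dogs. For each of the 6 sets the exact permutation test over arrays gave p = 0.00794 in both operations, the smallest that the splits of 5 against 5 allow. Equal numbers paired the sham arrays across the chambers in these data, and taken as pairs the sham differences ran from -12.32 to -9.10 for MYL2 and from -10.64 to -5.09 for MYL3. They ran from 4.24 to 9.79 for MYL4 and from 1.73 to 2.41 for MYL7. All 5 pairs had the same sign for each gene, and the exact sign-flip test then gives p = 0.0625, the smallest that 32 sign patterns allow.

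MYL2 averaged highest in sham ventricles, then in uninephrectomized ventricles, uninephrectomized atria and sham atria. MYL3 averaged highest in uninephrectomized ventricles, at 14.03, and next in sham ventricles, at 13.94, with uninephrectomized atria at 7.15 and sham atria at 6.03. MYL4 and MYL7 averaged highest in sham atria, at 14.33 each, then in uninephrectomized atria, at 14.23 and 14.24, then in sham ventricles, at 8.45 and 12.31, and lowest in uninephrectomized ventricles, at 7.35 and 11.80. In each gene the neighbours that share a chamber were not called different, as the comparison of operations shows.

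The comparison of operations asks whether the loss of renal mass alters light chain expression in either chamber. In the left atrium MYL2 differed by 0.91 ± 0.57 between uninephrectomized and sham dogs (95% confidence interval -0.28 to 2.10, adjusted p = 0.792). The MYL3 difference there was 1.12 ± 0.72 (-0.39 to 2.63, adjusted p = 0.800). MYL2 depended on array 4, with a difference of 0.24 without uninephrectomized atrium 4 and 1.34 without sham atrium 4. MYL3 depended on single arrays too, with 0.37 without sham atrium 4, 0.69 without uninephrectomized atrium 2 and 1.82 without sham atrium 3. The uninephrectomized and sham arrays overlapped in both genes. Their standard errors here pool in the tighter ventricular groups and so understate the atrial scatter. The atrial genes spread less in the atrium, where their signals lie near the top of the scale. MYL7 differed by -0.09 ± 0.13 (-0.37 to 0.19, adjusted p = 0.929). MYL4 differed by -0.10 ± 1.07 (adjusted p = 0.994), a standard error that carries the ventricular scatter, and a fit of the 2 atrial groups alone gave -0.10 ± 0.07 (-0.25 to 0.05, adjusted p = 0.853).

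In the left ventricle MYL7 averaged 11.80 ± 0.20 in uninephrectomized and 12.31 ± 0.37 in sham dogs (SD). The difference was -0.51 ± 0.13 (95% confidence interval -0.78 to -0.23), with an unadjusted p of 0.00125 and rank 63 by p of 30047. The difference was not called (adjusted p = 0.551). Its standard error pools in the tighter atrial groups, with SDs of 0.06 and 0.10, and so understates the ventricular scatter. The interval, the unadjusted p and the rank share this limit. Sham ventricle 1, at 11.79, lay inside the uninephrectomized range of 11.55 to 12.01, and the other 4 sham ventricles lay above it. The exact permutation test of the 10 values gave an unadjusted p of 0.0317. The difference was -0.64 without sham ventricle 1 (adjusted p = 0.0928) and -0.40 without sham ventricle 2 (adjusted p = 0.394). The gap between 3' and 5' or middle control probe sets, a measure of RNA length, averaged 1.14 ± 0.15 in uninephrectomized and 1.42 ± 0.27 in sham ventricles (SD). With this gap as a covariate the MYL7 difference was -0.46 ± 0.15 (adjusted p = 0.989).

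The other ventricular comparisons gave wide or near-zero estimates. MYL4 differed by -1.10 ± 1.07 between uninephrectomized and sham ventricles (95% confidence interval -3.34 to 1.14, adjusted p = 0.862), and it was -2.04 without sham ventricle 2 and -0.18 without uninephrectomized ventricle 2. This standard error pools in the tight atrial groups and so understates the ventricular scatter of MYL4. MYL2 differed by -0.11 ± 0.57 (-1.30 to 1.08, adjusted p = 0.987) and MYL3 by 0.09 ± 0.72 (-1.42 to 1.60, adjusted p = 0.990). Those standard errors carry the atrial scatter. A fit of the 2 ventricular groups alone gave -0.11 ± 0.12 for MYL2 (-0.39 to 0.16) and 0.09 ± 0.10 for MYL3 (-0.14 to 0.32). These intervals are far narrower than that of MYL4. Both genes lie near the top of the scale there, whose highest value is 15.02. Whether changes are compressed at the top was not tested.

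None of the 6 probe sets was called for the operation in either chamber, against a background of 0% in the atrium and 0% in the ventricle. Limma had 2010 atrial and 2005 ventricular probe sets at an unadjusted p under 0.05. None of the 6 had groups without overlap, which 0.929% of all tested probe sets had in the atrium and 0.992% in the ventricle. The atrial minus ventricular response was 1.02 ± 0.80 for MYL2, 1.03 ± 1.02 for MYL3, 1.00 ± 1.51 for MYL4 and 0.42 ± 0.19 for MYL7. The last had a 95% confidence interval of 0.02 to 0.81 and an unadjusted p of 0.0393. None was called (adjusted p = 0.9999 each), against a background of 0% with 893 probe sets at an unadjusted p under 0.05.

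**Figure D2:**
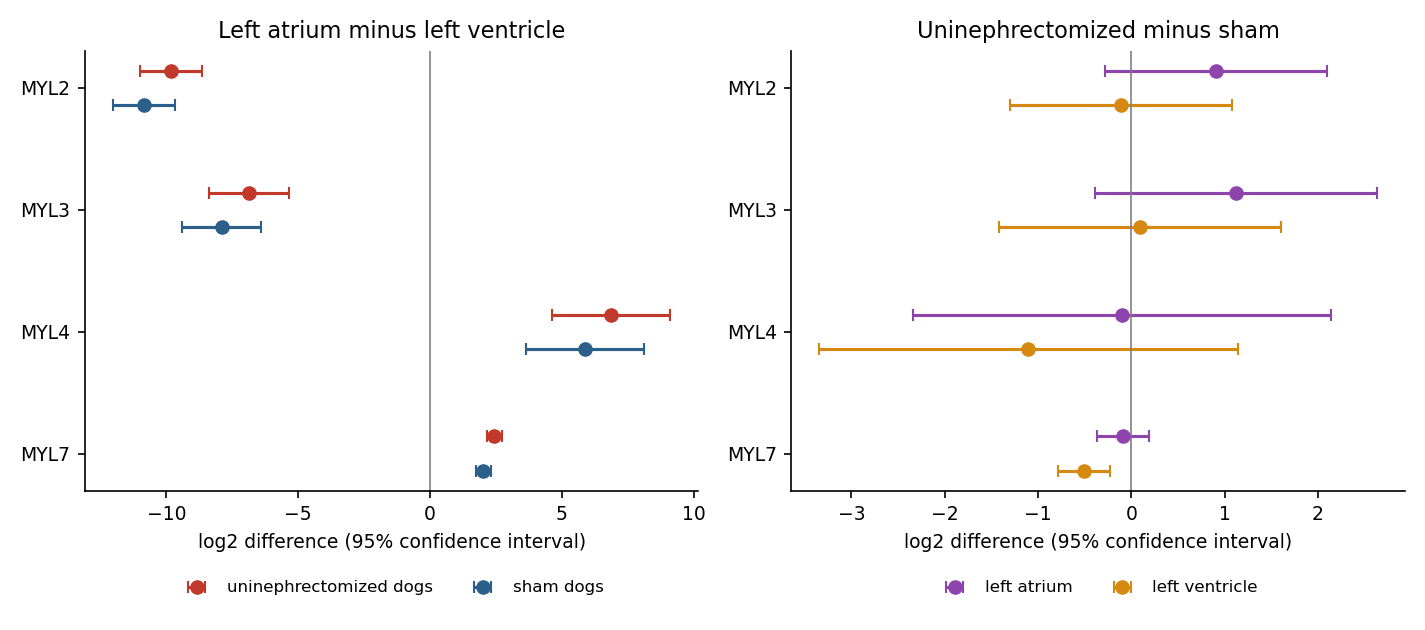
Log2 differences with 95% confidence intervals (n = 5 arrays per group), from 1 estimate of spread shared by the 4 groups. Left, atrium minus ventricle in uninephrectomized and sham dogs, where no interval of the 4 genes reaches 0. Right, uninephrectomized minus sham in atrium and ventricle, where the ventricular interval of MYL7 (-0.78 to -0.23) lies below 0 without being called over 30047 probe sets, and the other 7 intervals include 0.

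Each of the 4 genes had its larger SDs in the chamber where it was low. The SD of MYL4 was 0.05 in uninephrectomized and 0.11 in sham atria, against 2.85 in uninephrectomized and 2.27 in sham ventricles. These ventricular SDs were larger than those of 99.98% and 99.96% of the tested probe sets in the same groups, whose median SDs were 0.14 and 0.17. From the lowest to the highest array this is a 99.7-fold range among uninephrectomized and a 42.4-fold range among sham ventricles. MYL3 had SDs of 1.23 in uninephrectomized and 2.11 in sham atria, larger than 99.4% and 99.9% of tested probe sets. MYL2 had atrial SDs of 1.59 and 1.05, larger than 99.7% and 99.1%. MYL7 had 0.06 and 0.10 in uninephrectomized and sham atria and 0.20 and 0.37 in the ventricles, larger than 67.8% and 86.9% of tested probe sets in the ventricles. These percentiles describe spread and were not tested. The SDs of MYL2 and MYL3 in the ventricle and of MYL4 and MYL7 in the atrium are of signals near the top of the scale. Whether spread is compressed there was not tested.

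No relation between the 2 ventricular genes was detected among the 10 atria, which are too few to exclude one. The atria with the highest MYL2, array 4 of each operation, had MYL3 signals of 6.82 and 3.03, and 3.03 was the lowest MYL3 value of all. Sham atrium 3 had the lowest MYL2, at 2.70, and the highest sham MYL3, at 8.81. Over 10 atrial arrays Pearson's r between them was -0.20 (permutation p = 0.558) and Spearman's rho -0.02 (permutation p = 0.974), with r = 0.23 without the 2 arrays farthest from the MYL2 median. The 12 relations among the 4 genes, 6 in each chamber, had Benjamini-Hochberg adjusted values of at least 0.482. MYL4 and MYL7 in the atrium had r = 0.65 (permutation p = 0.0402, adjusted 0.482) and rho = 0.42 (permutation p = 0.235), with r = 0.53 without the 2 farthest arrays. That r was 0.26 without sham atrium 2 and changed sign under quantile normalization. In the ventricle MYL4 and MYL7 had r = -0.05 (permutation p = 0.901) and MYL2 and MYL3 had r = 0.19 (permutation p = 0.612).

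**Figure D3:**
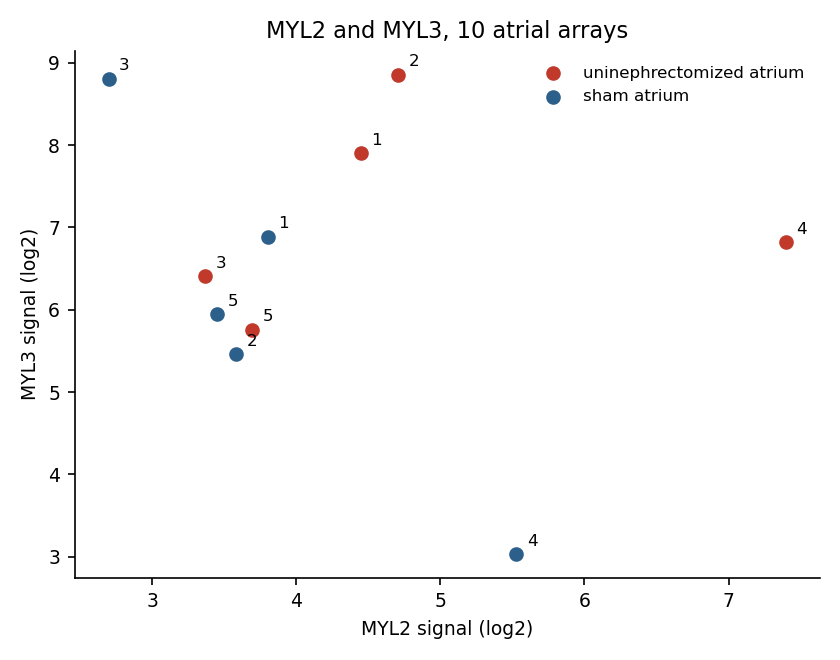
MYL2 signal (log2, x axis) against MYL3 signal (log2, y axis) in 5 uninephrectomized and 5 sham atria, with array numbers. Array 4 of each operation has the highest MYL2 of its group (7.40 and 5.53) at MYL3 signals of 6.82 and 3.03.

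Other genes of the same arrays are given beside this scatter as descriptions. In the uninephrectomized and sham atria with high MYL2 the mean of 5 ventricular marker genes was 8.64 and 9.04, the lowest of the uninephrectomized and the highest of the sham group. The mean of 8 smooth muscle and pericyte markers was 7.0 and 6.68 there, the highest of each group. Over the 10 atria the deviations of MYL2 from its group means had r = -0.24 with the ventricular list, 0.71 with the smooth muscle list and 0.74 with 8 endothelial markers. IRX5 did not leave its low range in any atrium. The part of these cells in the MYL2 scatter was not tested.

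The MYL4 scatter among ventricles followed the Iroquois homeobox genes of the ventricle, IRX5 and IRX3. In uninephrectomized ventricles IRX5 had signals of 7.36, 4.99, 7.08, 5.54 and 6.73 in arrays 1 to 5, and in sham ventricles 6.93, 5.14, 7.24, 7.28 and 6.87. The 3 ventricles with MYL4 under 6 were the 3 with IRX5 under 6. The deviations from the group means had r = 0.96 between MYL4 and IRX5 and 0.85 between MYL4 and IRX3 over 10 ventricular arrays. They had r = 0.81 with GJA5, a gap junction gene of conducting and atrial muscle cells. GJA5 had 6.08, 3.78, 6.23, 3.00 and 3.46 in uninephrectomized and 5.70, 3.41, 7.38, 5.25 and 4.63 in sham ventricles. The 3 ventricles with low MYL4 were low in GJA5 too, and so was uninephrectomized ventricle 5, whose MYL4 was 7.30.

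The same deviations of MYL4 had r = 0.68 with 8 atrial markers, GJA5 among them, and 0.34 with NR2F1, which stayed between 1.91 and 2.67 in these arrays. They had r = 0.63 with 8 fibroblast markers, -0.01 with 12 cardiomyocyte markers and 0.01 with the 3' gap. These points share the array and its scaling, IRX5 was picked because its pattern was the most like MYL4, and no p is given. Which cells carried MYL4 in these samples, and whether the pieces of ventricle were cut at the same depth or site, was not tested.

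**Figure D4:**
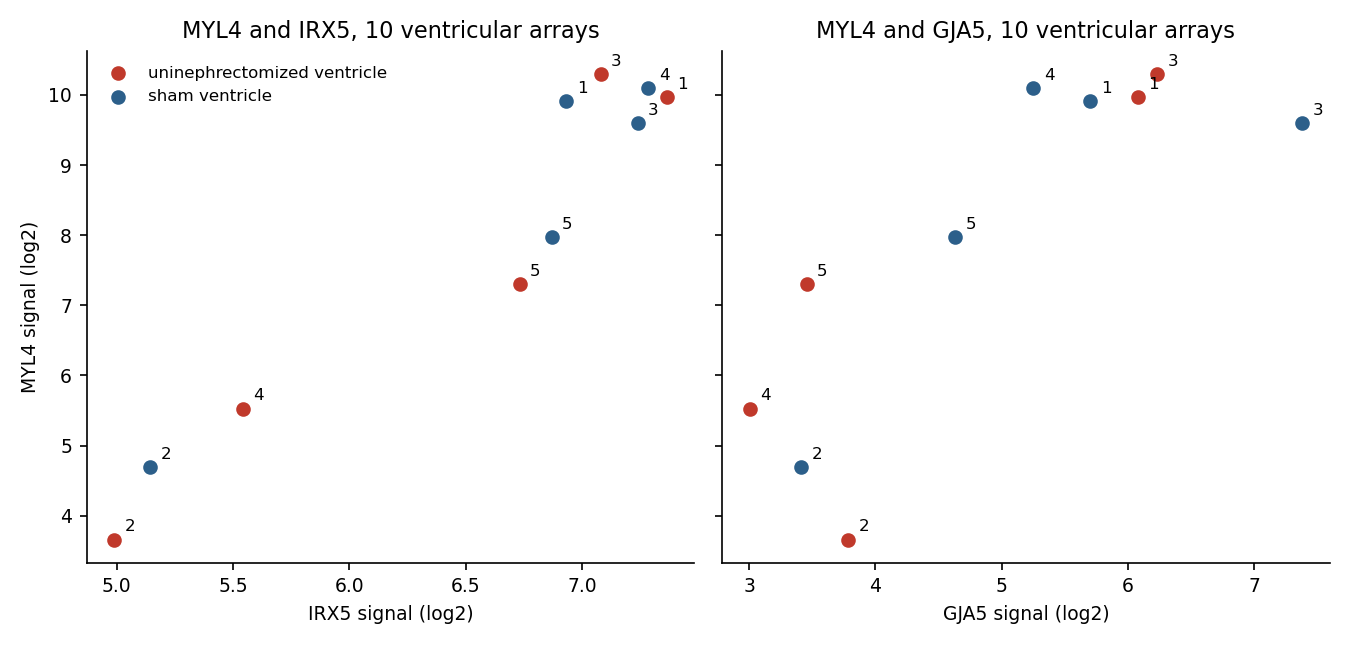
MYL4 signal (log2, y axis) against IRX5 (left) and GJA5 (right) signal (log2, x axis) in 5 uninephrectomized and 5 sham ventricles, with array numbers. Array 2 of each operation and uninephrectomized array 4 lie low in MYL4 and IRX5, and neither operation holds all of the low arrays.

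The remaining scatter had other companions. In the ventricle, where MYL3 varied little (SD 0.14 in uninephrectomized and 0.19 in sham dogs), its deviations had r = 0.89 with MYH7, the slow heavy chain that it binds, and 0.85 with 12 cardiomyocyte markers. In the atrium these values for MYL3 were 0.22 and 0.36, with 0.73 for 11 thick filament genes. MYL2 in the ventricle had r = 0.96 with 8 fast skeletal muscle genes, 0.84 with MYL1, which is one of them, 0.71 with the atrial markers and 0.66 with the 3' gap. It had r = -0.75 with the kinase and phosphatase list, 0.19 with MYH7 and 0.05 with the cardiomyocyte list, at an SD of 0.09 in uninephrectomized and 0.28 in sham ventricles. The fast skeletal list was near the low end of the scale there. Its array means were 2.56 to 2.64 in uninephrectomized and 2.45 to 2.76 in sham ventricles, against array medians of 2.33 to 2.39 over all probe sets. MYL7 in the ventricle had r = -0.07 with MYH7 and 0.06 with the 3' gap.

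For each light chain the 5 most alike of 11422 other genes were found by Pearson's r over all 20 arrays, which mainly reads the chamber. For MYL2 they were BDH1, an enzyme of ketone body use, PLA2G7, a lipoprotein-associated phospholipase, ANKRD23, a muscle ankyrin repeat protein, MPPED2 and MLYCD, which degrades malonyl-CoA, with r of 0.97 to 0.98. For MYL3 they were MAPT, which encodes tau, POLD2, a DNA polymerase delta subunit, KLHDC3, ABLIM1, an actin-binding protein, and EPB41L4B, with r of 0.96 to 0.97. For MYL4 they were GJA5, the ephrin receptor EPHA7, the natriuretic peptide clearance receptor NPR3, CRYM, a thyroid hormone binding protein, and the sulfotransferase TPST1, with r of 0.93 to 0.96. For MYL7 they were RABGAP1L, NR2F1, the alpha catenin gene CTNNA2, SLC35G2 and the circadian repressor BHLHE41, with r of 0.97 to 0.98. No gene was shared between the lists of the 2 ventricular or the 2 atrial light chains.

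By deviations from the group means, which leave the chamber out, the nearest genes were others. PAK1, a kinase, LGI1, MRGPRF, PHYHIPL and the Wnt inhibitor WIF1 stood nearest to MYL2, with r of 0.81 to 0.86. KLHDC3, SCD5, TMEM254, LOC476453 and ERBB2 stood nearest to MYL3, with r of 0.74 to 0.83, and KLHDC3 was the only name on both of its lists. IRX5, PHKA2, a subunit of phosphorylase kinase, FGF14, IRX3 and NELL2 stood nearest to MYL4, with r of 0.84 to 0.94. SORCS1, ALPK1, FBXO11, NCAPD2 and BORCS5 stood nearest to MYL7, with r of 0.79 to 0.83. Most of these genes had the higher r in the chamber where the light chain was low and its SDs were larger. The genes were picked by r of deviations pooled over both chambers, which weights the chamber with the larger SDs. The choice itself thus favours a higher r there, and nothing about the genes is read from it. In the atrium and the ventricle taken apart, with 10 arrays each, r was 0.93 and 0.06 for PAK1 with MYL2, and 0.88 and -0.46 for TMEM254 with MYL3. It was 0.39 and 0.96 for IRX5 with MYL4 and -0.25 and 0.90 for FGF14 with MYL4. It was -0.07 and 0.92 for SORCS1 with MYL7, while KLHDC3 with MYL3 (0.91 and 0.67) and ALPK1 with MYL7 (0.89 and 0.84) had high values in both. These values carry no test. Several of the genes lay near the low end of the scale. Group means were 1.94 to 2.10 for FGF14, 1.95 to 2.06 for TMEM254 and 2.37 to 2.52 for LOC476453, with the filter at 1.87.

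The rest of the myosin light chain family was higher in the atrium where it was called. Of 10 other light chain gene symbols 7 were tested, with 5 called higher in uninephrectomized and 4 in sham dogs, and 0 lower. The median differences were 0.89 and 0.72 against -0.02 and -0.01 over all tested probe sets. MYL9, the regulatory light chain of smooth muscle, averaged 11.85 ± 0.34 in the atrium and 9.69 ± 0.27 in the ventricle of uninephrectomized dogs (SD), a difference of 2.16 ± 0.18. In sham dogs it averaged 11.73 ± 0.33 and 9.70 ± 0.22 (SD), a difference of 2.03 ± 0.18. MYL6, the essential light chain of smooth muscle and non-muscle myosin, rose by 0.89 ± 0.09 in uninephrectomized and 0.72 ± 0.09 in sham dogs, and MYL6B by 1.07 ± 0.18 and 0.92 ± 0.18. MYLPF, a fast skeletal regulatory light chain with group means between 2.09 and 2.46, rose by 0.38 ± 0.09 in uninephrectomized and by 0.32 ± 0.09 in sham dogs, and its sham call was lost without sham ventricle 5 (adjusted p = 0.0501). MYL12B, a non-muscle regulatory light chain, was called in uninephrectomized dogs (0.20 ± 0.06, adjusted p = 0.0140) and not in sham dogs (0.16 ± 0.06, adjusted p = 0.0673).

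Markers of other cell types were counted in the same arrays, against 14.7% of all tested probe sets called higher and 12.5% lower in uninephrectomized atria, and 11.2% higher and 9.62% lower in sham atria. Of 8 smooth muscle and pericyte markers 4 were called higher and 2 lower in uninephrectomized atria, and 3 higher and 0 lower in sham atria, with 5 of 8 differences positive in each. The array means of that list ran from 6.10 to 7.0 in uninephrectomized atria against 5.76 to 5.91 in the ventricles, and from 6.19 to 6.68 in sham atria against 5.68 to 6.01 in the ventricles. Of 8 fibroblast markers 6 and 5 were called higher in uninephrectomized and sham atria. Of 12 cardiomyocyte markers 7 were called lower and 0 higher in either operation, with medians of -0.37 and -0.32. Their part in the light chain differences was not tested.

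MYL1, the fast skeletal essential light chain, was uneven among atria. It had 2.20, 7.40, 2.71, 4.39 and 6.47 in uninephrectomized and 2.55, 3.47, 2.14, 7.69 and 3.04 in sham atria, and 1.84 to 3.23 in all ventricles. The atria with signals above 6 were uninephrectomized arrays 2 and 5 and sham array 4. The chamber difference was 2.10 ± 0.95 in uninephrectomized (adjusted p = 0.110) and 1.20 ± 0.95 in sham dogs (adjusted p = 0.415). Its deviations had r = 0.39 with those of MYL2 and -0.49 with those of MYL3 over 10 atria.

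Kinases and phosphatase subunits that act on regulatory light chains were called in few cases. Of 15 such genes 11 were tested. In the atrium against the ventricle 3 were called higher and 1 lower in uninephrectomized dogs, and 2 higher and 1 lower in sham dogs. Rises and falls here and below are of the atrium against the ventricle. Over all tested probe sets 14.7% were called higher and 12.5% lower in uninephrectomized dogs and 11.2% and 9.62% in sham dogs, and nothing is read from counts this near to those shares. MYLK3, cardiac myosin light chain kinase, rose by 0.44 ± 0.07 in uninephrectomized and 0.43 ± 0.07 in sham dogs (adjusted p = 0.000132 and 0.000260). PPP1R12A, the targeting subunit of myosin phosphatase, rose by 1.24 ± 0.26 in uninephrectomized dogs (adjusted p = 0.00149) and 0.79 ± 0.26 in sham dogs (adjusted p = 0.0374). The sham call was lost without any of sham atria 1, 2, 4 and 5 and sham ventricles 3 and 5 (adjusted p = 0.0733 to 0.111), and it had adjusted p = 0.127 with the 3' gap as a covariate. ROCK1, which inhibits the phosphatase, was called in uninephrectomized dogs (0.46 ± 0.14, adjusted p = 0.0198), not without uninephrectomized atrium 3 or ventricle 4 (0.0539 and 0.0571), and not in sham dogs (0.38 ± 0.14, adjusted p = 0.0626). PPP1R14B, a phosphatase inhibitor, fell by 0.51 ± 0.12 in uninephrectomized dogs and by 0.50 ± 0.12 in sham dogs, with adjusted p = 0.0540 when only the 2 sham groups were fitted.

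**Figure D5:**
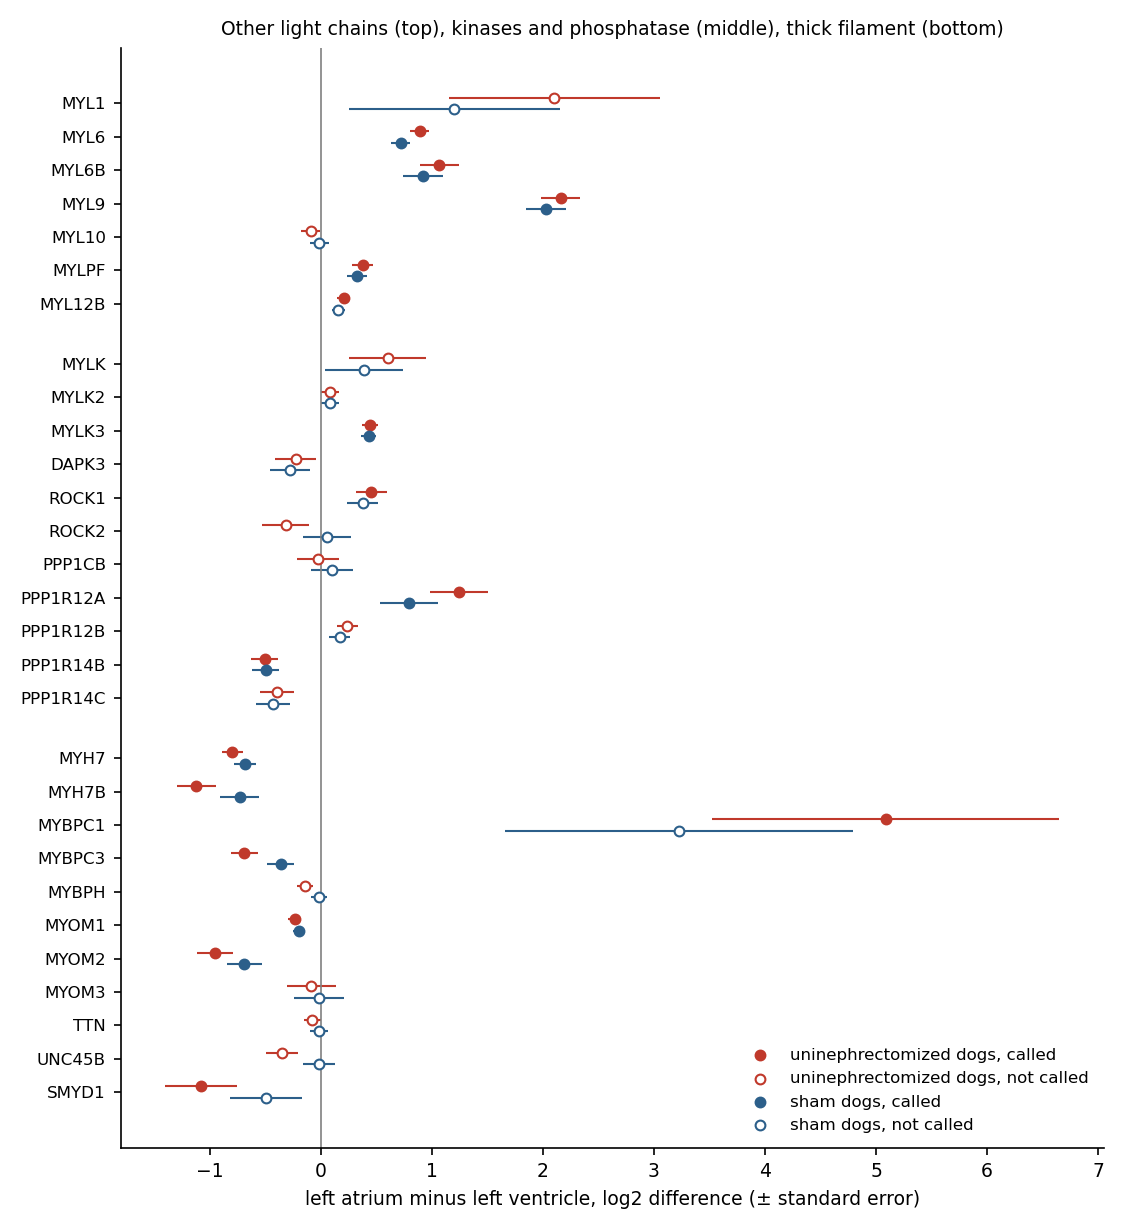
Left atrium minus left ventricle (log2 difference ± standard error, n = 5 arrays per group) for 7 other light chains, 11 kinase and phosphatase genes and 11 thick filament genes, in uninephrectomized and sham dogs. Filled points were called at adjusted p under 0.05, and MYL9, at 2.16 and 2.03, is the only called gene past 2 in both operations.

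Partners of the light chains on the thick filament were mostly lower in the atrium where called. Of 11 tested genes of 13, 6 were called lower and 1 higher in uninephrectomized dogs, and 5 lower and 0 higher in sham dogs. Of all tested probe sets 12.5% were called lower and 14.7% higher in uninephrectomized dogs, and 9.62% lower and 11.2% higher in sham dogs. MYH7, the slow heavy chain of the ventricle, averaged 13.58 ± 0.23 in the atrium and 14.38 ± 0.15 in the ventricle of uninephrectomized dogs (SD), a difference of -0.80 ± 0.10. The sham difference of MYH7 was -0.68 ± 0.10, so it was under 2-fold where its light chains differed over 100-fold. MYH7 signals lie near the top of the scale in both chambers, and whether differences are compressed there was not tested. MYH7B fell by 1.12 ± 0.17 and 0.73 ± 0.17 in uninephrectomized and sham dogs, and the M-band gene MYOM2 by 0.95 ± 0.16 and 0.69 ± 0.16. MYOM1 fell by 0.24 ± 0.06 and 0.20 ± 0.06, the sham call being lost without sham ventricle 5 (adjusted p = 0.0552) and in a fit of the 2 groups alone (0.0628). The heavy chain gene of the atrium, MYH6, has no probe set with a single symbol and is not analysed here.

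The other thick filament calls were less stable. MYBPC3, cardiac myosin binding protein C, was lower in the atrium by 0.69 ± 0.12 in uninephrectomized dogs (adjusted p = 0.000291). In sham dogs its difference was -0.36 ± 0.12 (adjusted p = 0.0379), and the call was lost with a fixed block on the numbers of both operations (adjusted p = 0.0780), kept with the sham arrays alone blocked by number (0.0187), and lost without any of sham atria 2, 3 and 5 and sham ventricles 1, 2 and 5 (0.0531 to 0.105). SMYD1, a methyltransferase of myosin assembly, fell by 1.08 ± 0.32 in uninephrectomized dogs (adjusted p = 0.0181, and 0.0556 without uninephrectomized atrium 4) and differed by -0.49 ± 0.32 in sham dogs (adjusted p = 0.315). MYBPC1, the slow skeletal binding protein C, ranged from 2.55 to 11.45 among uninephrectomized atria and from 2.28 to 2.71 in their ventricles. Its difference of 5.09 ± 1.57 (adjusted p = 0.0208) was not called without uninephrectomized atrium 1, 2 or 4 (0.0573, 0.0641 and 0.0609), nor in sham dogs (3.23 ± 1.57, adjusted p = 0.160).

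In the atrium against the ventricle 6 of 13 tested thin filament genes were called lower and 1 higher in uninephrectomized dogs. In sham dogs 5 were called lower and 1 higher. The shares over all tested probe sets were 12.5% lower and 14.7% higher in uninephrectomized dogs, and 9.62% lower and 11.2% higher in sham dogs. ACTA1, skeletal alpha actin, fell by 0.65 ± 0.17 in uninephrectomized and by 1.24 ± 0.17 in sham dogs, and under quantile normalization the uninephrectomized call was lost (adjusted p = 0.0646). Cardiac troponin I, from TNNI3, fell by 0.40 ± 0.06 and 0.38 ± 0.06, and slow skeletal troponin T, from TNNT1, by 0.64 ± 0.11 and 0.60 ± 0.11. Troponin C, from TNNC1, fell by 0.34 ± 0.06 and 0.30 ± 0.06, and its differences were -0.10 and -0.08 after quantile normalization and then not called (adjusted p = 0.0913 and 0.235). TPM2, beta tropomyosin, rose by 1.80 ± 0.40 in uninephrectomized and 1.26 ± 0.40 in sham dogs, where the call was lost without any of sham atria 1 and 4 and sham ventricles 4 and 5 (adjusted p = 0.0677 to 0.0898).

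LMOD2, which elongates thin filaments, was lower in the atrium by 0.38 ± 0.06 in uninephrectomized dogs. In sham dogs its difference was -0.19 ± 0.06 (adjusted p = 0.0317), and the call was kept with the sham arrays alone blocked by number (0.0135). It was lost with a fixed block on the numbers of both operations (adjusted p = 0.0630), after quantile normalization (0.0720), and without any of sham atria 2 and 4 and sham ventricles 1, 4 and 5 (0.0516 to 0.0876). NEB, nebulin, was called in uninephrectomized dogs (-1.43 ± 0.46, adjusted p = 0.0250), and not without uninephrectomized atria 4 or 5 or ventricles 2 or 4 (0.0584 to 0.0773), nor in sham dogs (-0.31 ± 0.46, adjusted p = 0.692). Cardiac actin, from ACTC1, differed by 0.10 in uninephrectomized and 0.07 in sham dogs and was not called in either (adjusted p = 0.359 and 0.598).

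Transcription factors linked to chamber identity were called both higher and lower in the atrium. Of 24 such genes 13 were tested, of which 4 were called higher and 4 lower in uninephrectomized and 3 higher and 3 lower in sham dogs. The background was 14.7% higher and 12.5% lower in uninephrectomized and 11.2% higher and 9.62% lower in sham dogs. NR2F1 rose by 6.79 ± 0.13 and 6.81 ± 0.13, and NR2F2, its relative, by 1.21 ± 0.22 and 1.19 ± 0.22, in uninephrectomized and sham dogs. IRX5 fell by 5.36 ± 0.41 and 5.70 ± 0.41, IRX3 by 3.06 ± 0.61 and 2.97 ± 0.61, and IRX2 by 0.76 ± 0.24 and 1.16 ± 0.24. IRX2 was not called in uninephrectomized dogs without uninephrectomized ventricle 1 or 3 (adjusted p = 0.0671 and 0.0580). MEF2C, an activator of myosin light chain genes, rose by 0.53 ± 0.11 in sham dogs. In uninephrectomized dogs its difference was 0.32 ± 0.11 (adjusted p = 0.0465), a call lost without any of 7 of the 10 uninephrectomized arrays (all but atrium 1 and ventricles 1 and 5) and under 6 other settings, with adjusted p of 0.0566 to 0.157.

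MEF2A (0.34 ± 0.10) and TEAD1 (-0.41 ± 0.14), a factor that binds muscle gene promoters and had group means of 1.93 to 2.43 here, were called in uninephrectomized dogs only by the test in each operation, and the difference between operations was not called (adjusted p = 0.9999 each). The MEF2A call was lost without uninephrectomized atrium 2 or ventricles 2 or 5 (adjusted p = 0.0508 to 0.0650). The TEAD1 call was lost without uninephrectomized atria 1 or 2 or ventricles 2 or 5 (0.0523 to 0.0887). No gene of the light chain, kinase and phosphatase, thick filament, thin filament or transcription factor lists was called for the operation in either chamber or for the difference of the responses.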

How the data were processed

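The deposited values are log2 signals of 43035 Affymetrix probe sets on 20 canine arrays. Per the labels, total RNA was extracted with Trizol and 100 ng went into biotin labelling by IVT Express. The authors' summarization, background correction and normalization behind these log2 values was not given in the sources used here. Values range from 0.43 to 15.02, with array medians of 2.33 to 2.39. Testing skipped 111 control probe sets and, of the others, the 30% of lowest mean (under 1.87). Gene symbols came from the platform annotation, which gives 1 symbol to 29264 probe sets, several to 439 and leaves 13332 unlisted.

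Contrasts came from limma's lmFit and eBayes (version 3.58.1, R 4.3.3) with a mean for each group, leaving 16 residual degrees of freedom. Benjamini-Hochberg adjustment was over 30047 probe sets per contrast. The fit was also run on simulated data with means and SDs taken from these arrays. Genes named are the 4 light chains, called members of the 5 pathway lists, and the 5 most alike genes by each measure. MYL1, ACTC1, GJA5 and the marker genes given by array were chosen after their values were seen. The members and lists were chosen with earlier results of these data known. Alternatives covered the filter, scaling, variance prior, array weights, 3' gap, replicate blocks and each array left out.

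Whether equal numbers pair arrays was checked from deviations from the group means. Same-numbered sham atria and ventricles correlated at 0.209 to 0.463 and differently numbered ones at -0.282 to 0.090, so the sham numbers were taken as pairs, from the data and not the labels. Uninephrectomized arrays of the same number correlated at -0.235 to 0.115 and differently numbered ones at -0.309 to 0.536, so those numbers were not. Each uninephrectomized atrium had its highest r, 0.167 to 0.536, with a different ventricle of another number. Whether such arrays come from the same dog was not tested, and the reported fit treats all arrays as unpaired. The number of arrays limits precision, and no scan files were used.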

Additional observations from a re-analysis of the deposited data

Results flagged for a closer look

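No value of MYL2, MYL3, MYL4 or MYL7 was flagged by the rule given next for an array far from the other 4 of its group. That includes MYL2 in uninephrectomized atrium 4, at 7.40 against 4.71 for the next array. Over 64 groups of 5 arrays of these and related genes, 4 had a highest or lowest array whose gap to its neighbour exceeded 0.71 of the group's range, and chance does so in about 1 of 20 groups. IRX5 was 5.14 in sham ventricle 2, below the other 4 sham ventricles, in the array that also had the lowest sham MYL4. MYL1, the fast skeletal essential light chain, was 7.69 in sham atrium 4, above the other sham atria, in the array with the highest sham atrial MYL2 and the lowest MYL3. MYL6B was 6.67 in uninephrectomized atrium 2, below its group. MYLK3, cardiac myosin light chain kinase, was 12.33 in uninephrectomized atrium 1, above its group.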

How the results depend on the processing

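The chamber calls of MYL2, MYL3, MYL4 and MYL7 kept their direction and stayed called in both operations under every alternative and without any 1 array. In sham dogs the values without 1 array ran from -11.28 to -10.57, -8.61 to -7.16, 4.94 to 6.29 and 1.89 to 2.12 for these genes, and in uninephrectomized dogs from -10.50 to -9.49, -7.31 to -6.53, 5.96 to 7.62 and 2.37 to 2.49. With the replicate block for sham dogs only, an alternative chosen after seeing the data, adjusted p in sham dogs was 1.56e-11, 4.64e-08, 0.000160 and 2.92e-10. As a fixed replicate block it was 6.05e-07, 2.35e-05, 0.00232 and 1.01e-06. The block changed no call of these genes. In uninephrectomized dogs, where numbers do not pair the arrays, the fixed block left 8312 calls against 8190. Over the alternatives all called probe sets ran from 4999 to 8030 in sham (6257 in the reported fit) and from 7046 to 9070 in uninephrectomized dogs.

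With the 3' gap as a covariate 2 uncalled ventricular differences between operations changed sign, MYL2 to 0.22 and MYL3 to -0.052 (adjusted p = 0.999 each). The cause was not tested. The exact permutation test of MYL7 in the ventricle (-0.51) had p = 0.0317, unadjusted, where limma's adjusted p was 0.551, and without 1 array it ran from -0.64 to -0.40 (adjusted p = 0.0928 to 0.940). Leaving out 1 array gave 0 to 1 called probe sets for the operation in the atrium (1 without sham atrium 5) and 0 to 4 in the ventricle (4 without sham ventricle 1, and 1 each without uninephrectomized ventricle 1 or 4). None was a probe set of these genes. Correlations of MYL2 with MYL3 in the ventricle (-0.52) and of MYL4 with MYL7 in the atrium (-0.080) changed sign under quantile normalization. Without 1 array r ran from -0.41 to 0.056 for MYL2 with MYL3 in the atrium and from -0.46 to 0.33 for MYL4 with MYL7 in the ventricle. Of 1150 values of 55 called list gene results under alternatives, 1077 stayed called, 73 lost the call and 0 changed sign. Counts called moved over 1.5-fold in small lists only: in sham dogs kinases and phosphatase higher to 1 (from 2) and lower to 0 or 2 (from 1), thick filament lower to 3 (from 5), and thin filament higher to 0 or 2 (from 1) and lower to 3 (from 5). In uninephrectomized dogs kinases lower reached 2 (from 1), thick filament higher 0 (from 1), thin filament higher 2 (from 1), and transcription factors 2 in each direction (from 4). A sign-flip test over 5 sham pairs cannot go below 0.0625. Precision is limited by 5 arrays a group and, for MYL2, MYL3 and MYL4, by the scatter in the chamber where each is low.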
